A study of Homo sapiens with 8 samples.

Results

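Promoters of 38 apoptosis genes, comprising caspases, death receptors and their adaptors, apoptosome factors, BIRC proteins and the BCL2 family, were examined for endogenous G-quadruplexes (G4s) in 2 human cancer cell lines. The genes were given as a fixed list by name, and each of the 38 was found among 20162 protein-coding gene records of the GENCODE annotation on hg19. A gene was scored by whether an interval of a G4 ChIP-seq list shared at least 1 bp with the 1 kb on either side of any of its annotated transcription start sites (TSSs).

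G4 ChIP-seq was performed on untreated K562 chronic myelogenous leukemia cells and untreated HepG2 hepatocellular carcinoma cells, in which DNA is recovered from cross-linked chromatin with the G4 structure-specific antibody BG4. For each line the labels name 3 libraries made with BG4 and 1 made from input DNA, whereas the deposited lists merge 8 replicates of K562 and 9 of HepG2. Per the study's supplement, these are technical replicates of 3 independent experiments per line. The authors called a peak high-confidence when 5 of the K562 replicates or 6 of those of HepG2 shared it, and kept lower-confidence intervals seen in 2. The lists hold 9205 and 8805 high-confidence and 19249 and 28387 lower-confidence intervals in K562 and HepG2, respectively. Each list is a single merged result without peak heights or read counts. The sequencing depth is therefore unknown, no spread between replicates could be computed and no difference between the cell lines was tested. The number of replicates and the threshold differ between the lines, so that cell type and list construction cannot be told apart.

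Apoptosis is executed by caspases, proteases that are switched on by an extrinsic and an intrinsic route. In the extrinsic route, ligand-bound death receptors such as FAS recruit adaptors that activate the initiator caspases CASP8 and CASP10. In the intrinsic route, BH3-only proteins relieve the block by anti-apoptotic BCL2 proteins, BAX and BAK1 permeabilize mitochondria, and released cytochrome c assembles with APAF1 and CASP9 into the apoptosome. Many of these genes have GC-rich promoters, and a G4 can form where several runs of guanines lie close together on a strand.

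High-confidence peaks were present at 23 of the 38 genes in K562 (60.5%, 95% Wilson interval 44.7 to 74.4), against 35.7% of all protein-coding genes. In HepG2, 20 genes had one (52.6%, 37.3 to 67.5), against 30.7% of all genes. Peaks were found in both lines at 18 genes (47.4%, background 24.3%) and in at least 1 line at 25 (65.8%, background 42.1%). The share of marked genes was thus higher in this list than over protein-coding genes in general. Of 34 further genes of the pathway, 35.3% had a high-confidence peak in each line, which was near the share of all genes. Both lists were chosen with earlier results of these data known. The excess may therefore not be read as a trait of apoptosis genes, and this contrast cannot locate it in the 38 listed genes. The 38 genes also have more annotated starts, with a median of 8 distinct TSSs per gene against 5 over all genes. When only the TSS tagged as canonical was used, 22 of 37 genes in K562 and 18 of 37 in HepG2 had a peak, beside 33.2% and 28.2% of all genes, and FAS dropped out because none of its transcripts carries the tag. The part of the number of starts in the difference was not tested beyond this count. The Wilson intervals cover the counting of genes only.

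**Figure D1:**
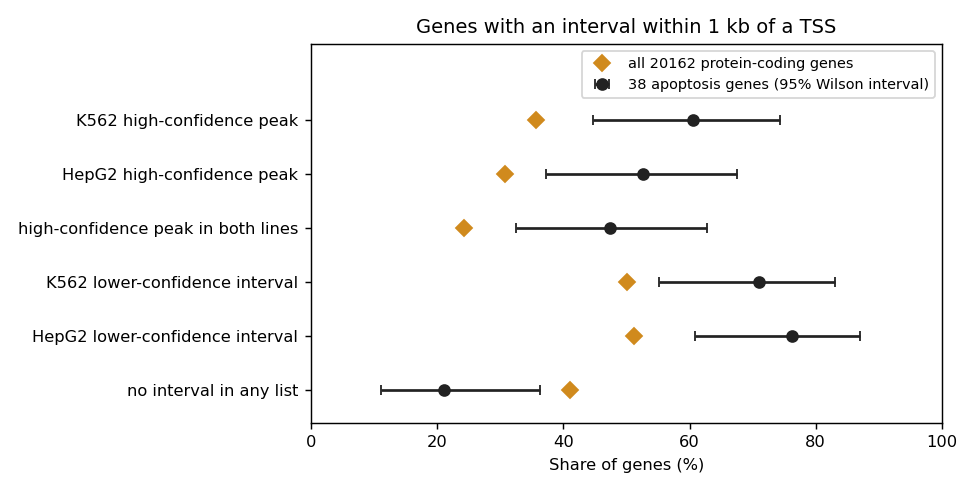
Share of genes (%) with an interval within 1 kb of a TSS, by list, for the 38 apoptosis genes (black circles, bars are 95% Wilson intervals) and for all 20162 protein-coding genes (orange diamonds, no error). High-confidence peaks lie at 60.5% of the apoptosis genes in K562 and 52.6% in HepG2, above the orange diamonds at 35.7% and 30.7%, and 21.1% of the apoptosis genes have no interval in any list.

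With the lower-confidence lists, 27 genes had an interval in K562 (71.1%, background 50.1%) and 29 in HepG2 (76.3%, background 51.2%). The 2 lines differed at few genes. Of the 7 genes with a high-confidence peak in 1 line only, 5 were marked in K562 (TNFRSF10A, TRADD, CASP6, BIRC2 and MCL1, 13.2%, background 11.4%) and 2 in HepG2 (TNFRSF10B and CASP8, 5.26%, background 6.47%). These shares were near the background. At 6 of these 7 genes the other line had a lower-confidence interval, CASP6 being the exception. The same share over all genes marked in 1 line was not computed. Lower-confidence intervals alone were found at FADD and BID in both lines, and at CFLAR, BOK and HRK in HepG2 only. No interval of any list lay near the remaining 8 genes (21.1%, background 41.1%), which were FAS, TNFRSF1A, CASP10, CASP1, CASP4, BIRC3, BIK and PMAIP1.

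**Figure D2:**
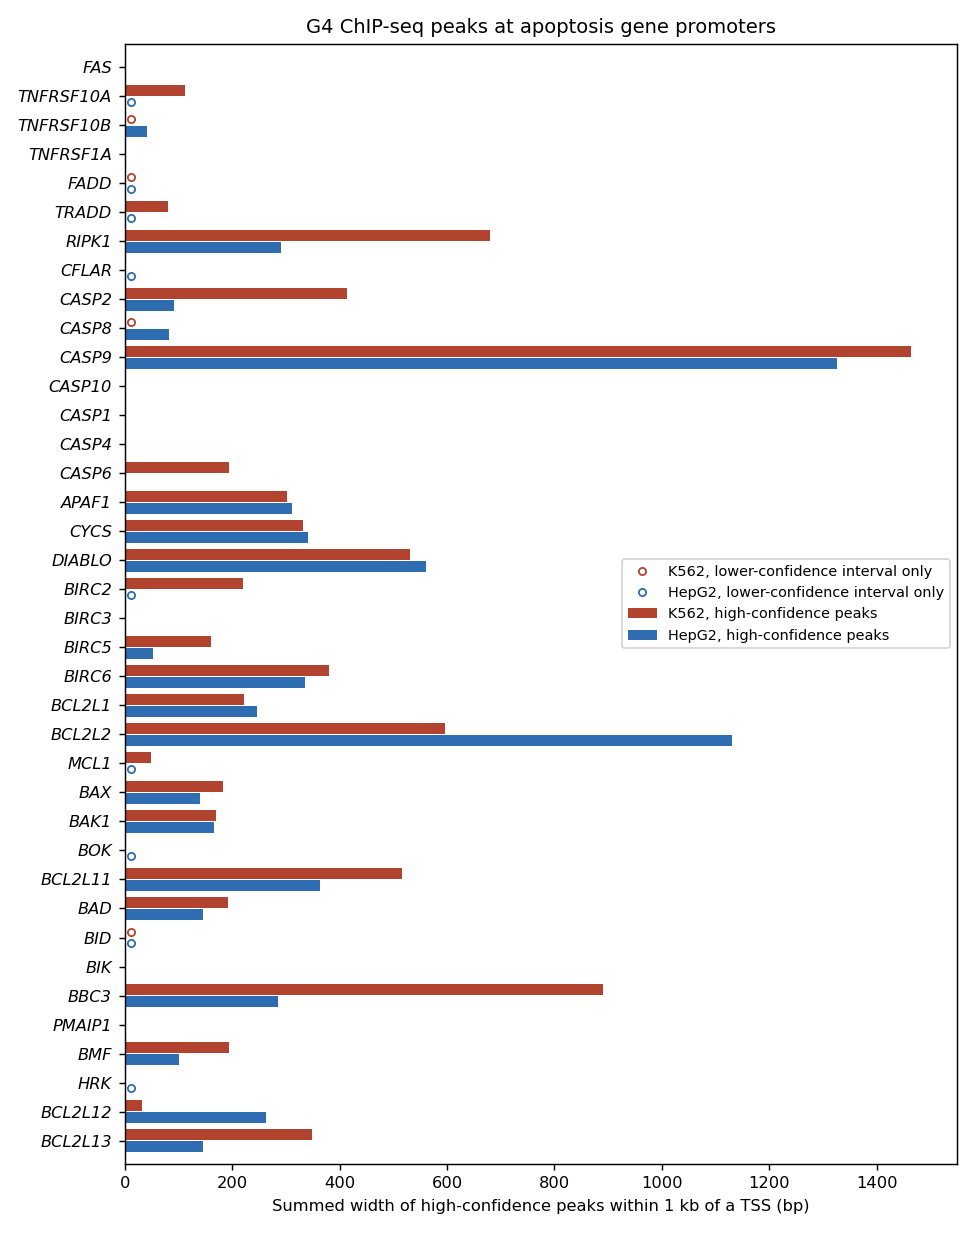
Summed width (bp) of the high-confidence peaks within 1 kb of a TSS of each of the 38 genes in K562 (red bars) and HepG2 (blue bars). Open circles mark genes with a lower-confidence interval only in that line, and genes without bar or circle have no interval. CASP9 has the longest bars in both lines, at 1463 bp in K562 and 1325 bp in HepG2, and BCL2L2 is the gene with the largest excess in HepG2. The CASP9 sums include peaks of 380 bp in K562 and 341 bp in HepG2 that are centred nearer to a DNAJC16 start. Those of BCL2L2 likewise include peaks centred nearer to a PPP1R3E start. Without such peaks, CASP9 would keep HepG2 peaks of 482 bp and 502 bp and still have the longest bar, and BCL2L2 would keep one of 297 bp.

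Initiator caspases start the proteolytic cascade. Among these 4 genes, high-confidence peaks were found at CASP2 and CASP9 in both lines and at CASP8 in HepG2, and CASP10 had no interval. CASP9, the initiator activated on the apoptosome, carries the widest of all 9205 K562 high-confidence peaks, with 1083 bp on the minus strand gene at chr1:15850610-15851692. HepG2 covered the same stretch with separate peaks of 482 bp (chr1:15850663-15851144) and 502 bp (chr1:15851195-15851696), which share 482 bp and 498 bp with the K562 peak. The lower-confidence HepG2 list joins them into a single interval of 1107 bp. The CASP9 domain was therefore present in both cell lines and differed in how far it was broken up. It holds 5 complete G4 motifs, defined by 4 G-runs, each 3 bases or longer, that are separated by 1 to 7 bases, and all 5 lie on the strand of the gene. All 5 are contained in the high-confidence peaks of both lines. They are shown 5′ to 3′ with the runs of at least 3 G in capitals, ordered along the gene's own direction:

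CASP9, chr1:15851664-15851687, minus strand: GGGGGcGGGGcGGGGccctGGGGG

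CASP9, chr1:15851409-15851430, minus strand: GGGGGcGGGGtGGGGGcgtGGG

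CASP9, chr1:15851046-15851069, minus strand: GGGGatacGGGGcGGGttctGGGG

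CASP9, chr1:15850985-15851005, minus strand: GGGGcGGGttctGGGGcGGGG

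CASP9, chr1:15850763-15850784, minus strand: GGGGcGGGGGcGGGtcctGGGG

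The first 4 are annotated as intron of CASP9 and the last as 5′ UTR. The K562 peak covers 8 annotated CASP9 TSSs. Guanine made up 51.5% of its bases on the gene's strand and 21.5% on the opposite strand, so the domain is strongly asymmetric. A second K562 peak of 380 bp at chr1:15853010-15853389 and a HepG2 peak of 341 bp at chr1:15853038-15853378 were centred at -2489 bp and -2498 bp from the canonical TSS, where negative positions are upstream. Positions elsewhere are from the nearest annotated TSS of the gene unless the canonical TSS is named. Both cover a start of the neighbouring gene DNAJC16, and neither holds a complete motif.

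**Figure D3:**
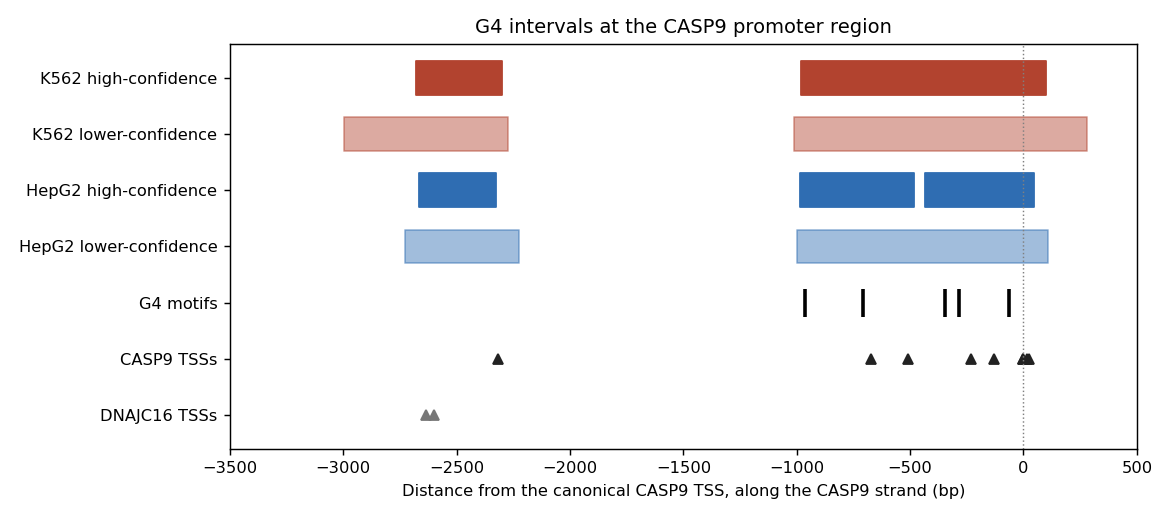
Intervals of the 4 lists at CASP9, drawn by distance (bp) from the canonical CASP9 TSS along the CASP9 strand, with K562 in red, HepG2 in blue and lower-confidence lists in paler colour. Black ticks are G4 motifs within the intervals and triangles are annotated TSSs of CASP9 and DNAJC16. The 1083 bp K562 peak and the 482 bp and 502 bp HepG2 peaks cover the same 5 motifs.

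CASP2, an initiator caspase implicated in responses to genotoxic stress, had the K562 peak with the smallest shared part, 22.2%, among the 21 overlapping pairs of peaks at these genes. Its K562 peak measured 414 bp (chr7:142985150-142985563) and its HepG2 peak 92 bp (chr7:142985307-142985398), the latter lying wholly inside the former. The K562 peak contains a motif on the strand opposite to the gene, which ends before the HepG2 peak begins:

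CASP2, chr7:142985279-142985305, minus strand: GGGGaaggagcGGGGcGGGGcaaaGGG

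CASP8, the initiator caspase of death receptor complexes, had a HepG2 high-confidence peak of 83 bp at chr2:202098114-202098196. Its GC content of 49.4% was low and it held no motif. This peak covers 5 annotated starts, but its centre was at -27104 bp from the canonical TSS, and K562 had a lower-confidence interval of 109 bp at the same place. CASP10, the neighbouring gene on chromosome 2, had its nearest high-confidence peak at a distance of 50175 bp in HepG2 and of 268289 bp in K562.

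CASP6 is an effector caspase, whereas CASP1 and CASP4 act in inflammatory cell death. CASP6 was the gene with the clearest difference between the lines. K562 had high-confidence peaks of 36 bp (chr4:110624606-110624641) and 158 bp (chr4:110624651-110624808) in annotated 5′ UTR, inside a single lower-confidence interval of 307 bp. In HepG2 the nearest lower-confidence interval was 26337 bp away. Of the 36 bases of the narrower peak, 20 belong to a motif on the gene's strand:

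CASP6, chr4:110624613-110624632, minus strand: GGGccgaGGGcGGGGccGGG

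CASP1 and CASP4, neighbours on chromosome 11, had no interval within 986945 bp and 1052829 bp of a TSS in any list. The 2001 bp around their canonical TSSs had GC contents of 42.9% and 43.5% and contained no motif.

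Death receptors carry apoptotic ligands' signals across the membrane. Of the 4 receptor genes, 1 had a high-confidence peak in each line, and none had one in both. TNFRSF10A and TNFRSF10B, which encode the receptors for the ligand TRAIL, were marked in different lines. At TNFRSF10A, K562 had peaks of 75 bp and 38 bp (chr8:23082609-23082683 and chr8:23082687-23082724) centred at -31 bp and -90 bp, while HepG2 had lower-confidence intervals of 114 bp and 73 bp. At TNFRSF10B, HepG2 had a single peak of 41 bp (chr8:22926607-22926647), centred at -83 bp, and K562 had a lower-confidence interval of 100 bp. In the same order, these 3 peaks were at the width percentiles 8.88, 3.75 and 6.55 of their list, and none held a motif. FAS and TNFRSF1A, the receptors for FAS ligand and TNF, had no interval. The nearest lower-confidence interval to a FAS start was 260324 bp away in HepG2, and that to a TNFRSF1A start 3164 bp away in K562.

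Adaptors and regulators of the receptor complexes were marked unevenly. RIPK1, a kinase of TNF receptor complexes, had 3 high-confidence peaks in K562 and 2 in HepG2. Peaks of 223 bp in each line, at chr6:3064005-3064227 in K562 and chr6:3063983-3064205 in HepG2, shared 201 bp over alternative starts, with centres at -4612 bp and -4634 bp from the canonical TSS. Downstream of the canonical TSS, a HepG2 peak of 68 bp (chr6:3069224-3069291) lay inside a K562 peak of 226 bp (chr6:3069103-3069328). The K562 peak of 231 bp, at chr6:3068631-3068861 over the canonical TSS with a GC content of 80.5%, had no HepG2 interval in either list. TRADD, the adaptor of TNFRSF1A, had an 80 bp K562 peak at chr16:67193802-67193881 with a GC content of 85.0%. It covers the start of TRADD and that of FBXL8 on the other strand, which are 23 bp apart. HepG2 had only a lower-confidence interval of 129 bp there. Its nearest high-confidence peak was 1089 bp from a TRADD start, so TRADD counted as marked in both lines with 2 kb either side. The K562 peak contains a motif on the gene's strand:

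TRADD, chr16:67193848-67193873, minus strand: GGGGcGGGacgcgcGGGcggacGGGG

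FADD, the adaptor that recruits CASP8, had lower-confidence intervals of 56 bp and 72 bp in K562 and 144 bp in HepG2. CFLAR, which encodes the CASP8-like inhibitor FLIP, had lower-confidence intervals of 223 bp and 152 bp in HepG2 and none in K562.

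The 3 listed factors that act once mitochondria are permeabilized, APAF1, CYCS and DIABLO, each had a high-confidence peak in both lines. Of 4 further mitochondrial factors, HTRA2 and ENDOG also had peaks in both lines, AIFM2 had one in HepG2 only, and AIFM1 had lower-confidence intervals only. At APAF1, the scaffold of the apoptosome, peaks of 303 bp in K562 (chr12:99038768-99039070) and 311 bp in HepG2 (chr12:99038723-99039033) shared 266 bp. CYCS, which encodes cytochrome c, had peaks of 332 bp (chr7:25164893-25165224) and 341 bp (chr7:25164896-25165236) that shared 329 bp. The CYCS peaks were therefore nearly the same interval in both lines. They were centred at -179 bp and -187 bp and held no complete motif. DIABLO, an antagonist of inhibitor of apoptosis proteins, had peaks of 531 bp in K562 (chr12:122710563-122711093) and 561 bp in HepG2 (chr12:122710476-122711036). The DIABLO peaks shared 474 bp and were wider than 98.2% and 99.0% of the peaks of their lists. Each holds the same 3 motifs, all on the strand opposite to the gene:

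DIABLO, chr12:122710688-122710715, plus strand: GGGattGGGcaggcaGGGGGaaaGGGGG

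DIABLO, chr12:122710911-122710930, plus strand: GGGaggcGGGGccGGGcGGG

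DIABLO, chr12:122710935-122710955, plus strand: GGGGccGGGcGGGaggcGGGG

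The BIRC genes encode inhibitor of apoptosis proteins and relatives. High-confidence peaks lay at 3 of the 4 genes in K562 and at 2 in HepG2. BIRC2 had a K562 peak of 220 bp at chr11:102217850-102218069 and only a lower-confidence interval of 245 bp in HepG2, although both intervals contain the same motif on the gene's strand at a 5′ UTR:

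BIRC2, chr11:102217970-102217997, plus strand: GGGGcggcGGGcttcGGGagcgcccGGG

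Its neighbour BIRC3, which encodes a closely related ubiquitin ligase, had no interval. The window around the BIRC3 TSS had a GC content of 44.5% and no motif, against 51.1% and 2 motifs at BIRC2. BIRC5, which encodes survivin, had a K562 peak of 161 bp (chr17:76210190-76210350) and a HepG2 peak of 52 bp within it (chr17:76210211-76210262). BIRC6, a large ubiquitin ligase, had peaks of 376 bp in K562 (chr2:32581889-32582264) and 336 bp in HepG2 (chr2:32581971-32582306), with a further K562 fragment of 4 bp (chr2:32581879-32581882). The BIRC6 peaks share 294 bp and a motif on the strand opposite to the gene, so that BIRC2 and BIRC6 carried their motifs on different strands.

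Anti-apoptotic BCL2 proteins hold the effector proteins in check. The 3 listed genes BCL2L1, BCL2L2 and MCL1 had a high-confidence peak in K562, and the first 2 had one in HepG2. None of the further BCL2 family genes counted had an interval in any list, among them BCL2A1 and BCL2L10, named here after their values were seen. BCL2L1, which encodes BCL-XL, had peaks of 222 bp in K562 (chr20:30311322-30311543) and 247 bp in HepG2 (chr20:30311318-30311564), the K562 peak lying wholly inside the HepG2 peak, at an alternative start with its centre at -761 bp from the canonical TSS. BCL2L2, which encodes BCL-w, was the gene where HepG2 exceeded K562 most. Peaks of 597 bp in K562 (chr14:23770655-23771251) and 746 bp in HepG2 (chr14:23770568-23771313) were centred at -5089 bp and -5102 bp from the canonical TSS, in annotated intron, and cover a start of PPP1R3E on the other strand. A further HepG2 peak of 87 bp (chr14:23772006-23772092) overlapped only a lower-confidence interval in K562. The nearest annotated BCL2L2 start to the K562 peak was 254 bp from its edge. HepG2 alone had a peak over the canonical TSS, of 297 bp at chr14:23775844-23776140, where K562 had a lower-confidence interval of 134 bp. This HepG2 peak contains motifs on the strand opposite to the gene next to the TSS, from which the read-through gene BCL2L2-PABPN1 is also annotated. In the first, the run of 8 G counts as 2 runs:

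BCL2L2, chr14:23775987-23776005, minus strand: GGGGGGGGcagaGGGaGGG

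BCL2L2, chr14:23776038-23776056, minus strand: GGGaGGGaGGGagagaGGG

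MCL1, a short-lived anti-apoptotic protein, had a K562 peak of 50 bp at chr1:150552255-150552304, centred at -65 bp from the nearest TSS and at -193 bp from the canonical TSS. HepG2 had a lower-confidence interval of 240 bp there, which almost equalled the K562 lower-confidence interval of 254 bp in extent. The lower-confidence signal of MCL1 was thus of nearly equal width in both lines, and only the stretch passing the stricter threshold differed. Of the K562 peak's bases, 88.0% were G or C, and it starts with a motif on the strand opposite to the gene:

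MCL1, chr1:150552255-150552276, plus strand: GGGGccGGGGccGGGGccGGGG

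BAX, BAK1 and BOK form pores in the mitochondrial outer membrane. BAX peaks measured 184 bp in K562 (chr19:49457943-49458126) and 140 bp in HepG2 (chr19:49457965-49458104) and had the same centre, at -38 bp from the nearest TSS and at -98 bp from the canonical TSS. BAK1 peaks measured 171 bp (chr6:33547961-33548131) and 166 bp (chr6:33547948-33548113) and shared 153 bp. None of these peaks held a complete motif. BOK had only a HepG2 lower-confidence interval of 231 bp, centred 997 bp downstream of a TSS.

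BH3-only proteins sense stress and set off the intrinsic route. Of these 8 genes, BCL2L11, BAD, BBC3 and BMF had high-confidence peaks in both lines, and the other 4 had none in either. BBC3, which encodes the p53 target PUMA, had the most peaks of all 38 genes. K562 had 5 high-confidence peaks there, of 276 bp (chr19:47729386-47729661), 136 bp (chr19:47730381-47730516), 57 bp (chr19:47731221-47731277), 129 bp (chr19:47733713-47733841) and 292 bp (chr19:47734401-47734692), whereas HepG2 had 1 of 286 bp, and each line had 6 lower-confidence intervals. The centres of the K562 peaks ranged from -90 bp to 4933 bp from the canonical TSS, all in annotated intron. The HepG2 peak (chr19:47734591-47734876) shares 102 bp with the last of these K562 peaks. That K562 peak had a GC content of 82.5% and 2 motifs on the gene's strand, both of which lie outside the HepG2 high-confidence peak but inside its lower-confidence interval.

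BCL2L11, which encodes BIM, had K562 peaks of 303 bp (chr2:111878214-111878516) and 214 bp (chr2:111880017-111880230) and a HepG2 peak of 364 bp (chr2:111878136-111878499). The first K562 peak and the HepG2 peak share 286 bp that reach over the canonical TSS, and the second K562 peak matched a HepG2 lower-confidence interval only. Both of the shared peaks contain the same motif on the gene's strand:

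BCL2L11, chr2:111878399-111878423, plus strand: GGGGcGGGacctagcGGGGGcGGGG

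BAD had peaks of 193 bp in K562 and 146 bp in HepG2 that shared 136 bp, and BMF had peaks of 195 bp and 101 bp, the HepG2 peak lying inside the K562 peak. BID, the BH3-only protein cleaved by CASP8, had lower-confidence intervals of 34 bp in K562 and 187 bp in HepG2. HRK had a HepG2 lower-confidence interval of 100 bp. BIK and PMAIP1, which encodes NOXA, had none, although the window around the BIK TSS had a GC content of 64.7% and 6 motifs, and that of PMAIP1 58.3% and 3 motifs. G-rich promoter sequence was therefore present at both of these genes without an interval in any list.

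BCL2L12 and BCL2L13 are BCL2 relatives with less defined roles in apoptosis. BCL2L12 was counted in both lines, but its peaks lay at different places. K562 had a peak of 33 bp at chr19:50169170-50169202 over the canonical TSS, with its centre 54 bp from a start of IRF3 on the other strand, and HepG2 a peak of 263 bp at chr19:50175512-50175774, 6453 bp downstream near an alternative noncoding start. With 1 kb upstream of the TSS only or with starts of protein-coding transcripts only, BCL2L12 lost its HepG2 call, and with intervals of at least 50 bp only it lost its K562 call. BCL2L13 had 2 peaks in each line, of 130 bp (chr22:18111544-18111673) and 218 bp (chr22:18121353-18121570) in K562 and 91 bp (chr22:18111547-18111637) and 54 bp (chr22:18121395-18121448) in HepG2, and both HepG2 peaks lie inside the K562 peaks.

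The extent of the peaks was then compared between the lines. At 17 of the 18 genes marked in both lines, the peaks overlapped, giving 21 overlapping pairs. The K562 interval was wider in 14 pairs, the HepG2 interval in 6, and 1 pair was equal. Over all overlapping pairs near protein-coding TSSs, the K562 interval was wider in 63%, so the apoptosis genes were near the background. In 9 pairs the HepG2 peak lay wholly inside the K562 peak and in 2 pairs the reverse. How often such overlap or containment occurs over all protein-coding genes was not computed, so whether these counts are unusual is not known. More than 1 high-confidence peak was present at 8 genes in K562 (21.1%, 11.1 to 36.3, background 6.51%). In HepG2 this held for 4 genes (10.5%, 4.17 to 24.1, background 4.7%), and the interval includes the background. These shares also rise with the share of marked genes. Among marked genes only, 8 of 23 in K562 had more than 1 peak, against 1313 of 7191 over all protein-coding genes. The HepG2 counts were 4 of 20 against 948 of 6199. At TNFRSF10A, CASP6 and BIRC6, the K562 peaks lie inside a single lower-confidence interval. All genes were counted in the same way, and the larger number of starts at the apoptosis genes was not accounted for.

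The 35 K562 peaks had a median width of 214 bp, from 4 bp to 1083 bp, and the 26 HepG2 peaks a median of 235 bp, from 41 bp to 746 bp. All high-confidence peaks near protein-coding TSSs had medians of 203 bp and 182 bp. The 95% intervals of the medians at the apoptosis genes, 158 bp to 231 bp in K562 and 92 bp to 336 bp in HepG2, include the medians of all peaks. Under 100 bp were 8 peaks in each line. Peak centres had a median position of -29 bp in K562 and -34.5 bp in HepG2 from the nearest TSS of the gene, where all such peaks were at -52 bp and -61 bp. Of the K562 peaks, 25 covered an annotated TSS, 28 were centred within 200 bp of one (80.0%, all peaks 85.2%) and 25 were upstream (71.4%, all peaks 79.2%). In HepG2, 14 covered a TSS, 21 were within 200 bp (80.8%, all peaks 83.8%) and 17 were upstream (65.4%, all peaks 78.1%). The share of upstream peaks was below that of all peaks near protein-coding TSSs in both lines, but the 2 measures are unlike. All such peaks were placed by the nearest start of any protein-coding gene, those at the apoptosis genes by that gene's own starts. A start of another protein-coding gene was nearer at 4 of the apoptosis gene peaks in each line. The differences in position and share were not tested.

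**Figure D4:**
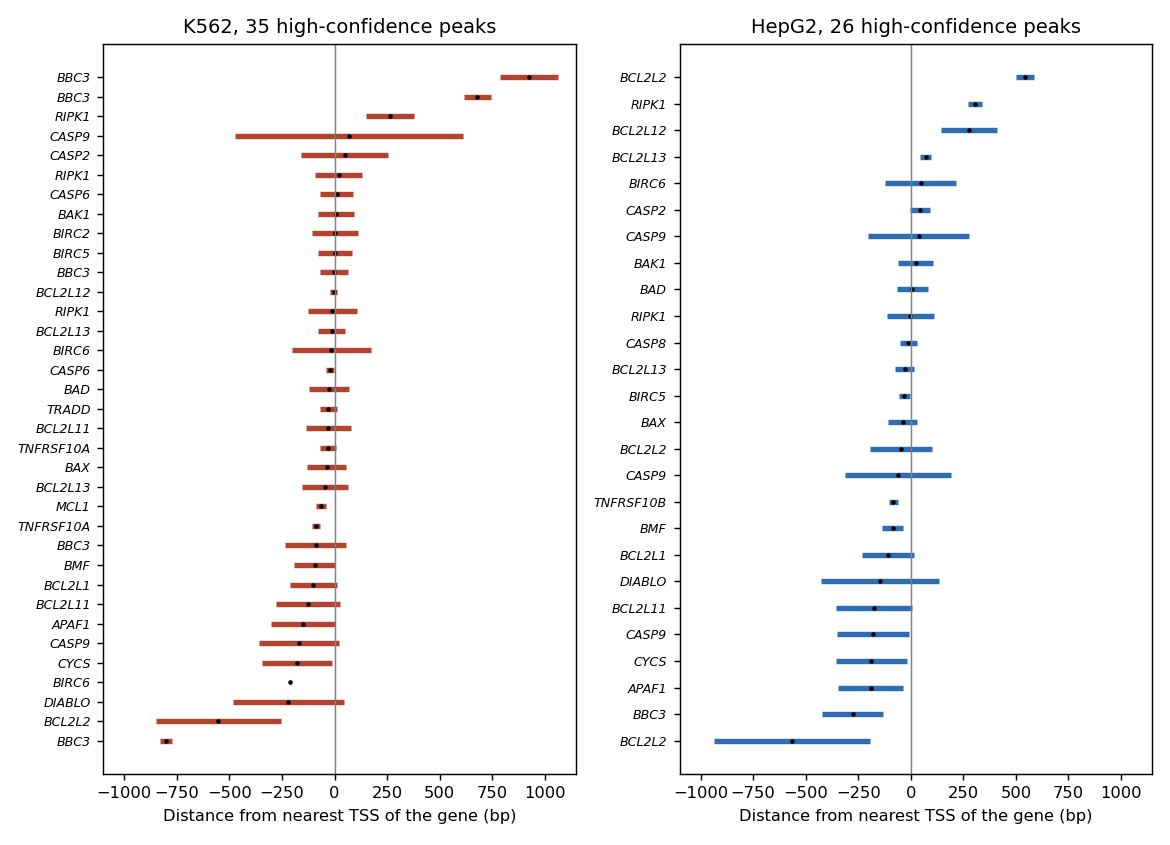
Position of each high-confidence peak at the apoptosis genes, drawn as a bar of its width around its centre (dot), by distance (bp) of the centre from the nearest annotated TSS of the gene (grey line, negative upstream), for K562 (left, red, 35 peaks) and HepG2 (right, blue, 26 peaks). Centres cluster just upstream of the TSS, with medians of -29 bp and -34.5 bp, and BBC3 and BCL2L2 have the most distant peaks.

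Some of these peaks lay at promoters shared with a neighbouring gene. At 7 of the 25 genes with a high-confidence peak, the centre of a peak lay within 1 kb of a start of another protein-coding gene on the opposite strand. The same share over all marked protein-coding genes was not computed, so whether this count is unusual is not known. The pairs were TRADD and FBXL8, CASP9 and DNAJC16, APAF1 and IKBIP, BCL2L2 and PPP1R3E, BAD and GPR137, BCL2L12 and IRF3, and BCL2L13 and ATP6V1E1. At APAF1 the centre of a peak lay 13 bp from an IKBIP start, closer than to APAF1 itself. The G4 lists do not assign such a peak to either gene. No high-confidence interval was shared by 2 of the 38 genes.

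A complete G4 motif was present in 15 of the 35 K562 peaks (42.9%, 28.0 to 59.1), against 34.9% of all K562 peaks near protein-coding TSSs. In HepG2, 7 of 26 peaks held one (26.9%, 13.7 to 46.1), against 25%. The intervals of both shares include the background, but they treat peaks of the same gene as separate units. In K562 the motif lay on the gene's strand only in 10 peaks and on the opposite strand only in 5, and in HepG2 in 3 and 4 peaks. No peak had motifs on both strands. The median GC content was 73.0% in K562, from 55.3% to 88.0%, and 68.5% in HepG2, from 43.9% to 76.1%, beside 71.2% and 67.5% for all peaks near protein-coding TSSs. The counts depended on the interval searched. Of the lower-confidence intervals that hold these peaks, 21 of 32 in K562 (all peaks 49.2%) and 15 of 25 in HepG2 (41.5%) contained a motif.

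The sequence around the TSS was then described by class. In the 2001 bp around the canonical TSS, 32 of the 38 genes had at least 1 motif, against 68.6% of all protein-coding genes, with FAS measured at its most upstream start. Motifs were present at 17 of the 18 genes marked in both lines, at 6 of 7 marked in 1 line, at all 5 with lower-confidence intervals only, and at 4 of the 8 without an interval. Median GC contents of these windows were 59.1%, 57.8%, 59.9% and 49.8% in the same order, and 56.0% over all protein-coding genes. The 4 genes of lowest GC content without an interval, CASP10, CASP1, CASP4 and BIRC3, were at 41.3% to 44.5%, whereas FAS, TNFRSF1A, PMAIP1 and BIK were at 55.1% to 64.7%. The groups overlapped in GC content, and CASP8, at 43.7% around its canonical TSS, was marked in HepG2 at a distant start.

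**Figure D5:**
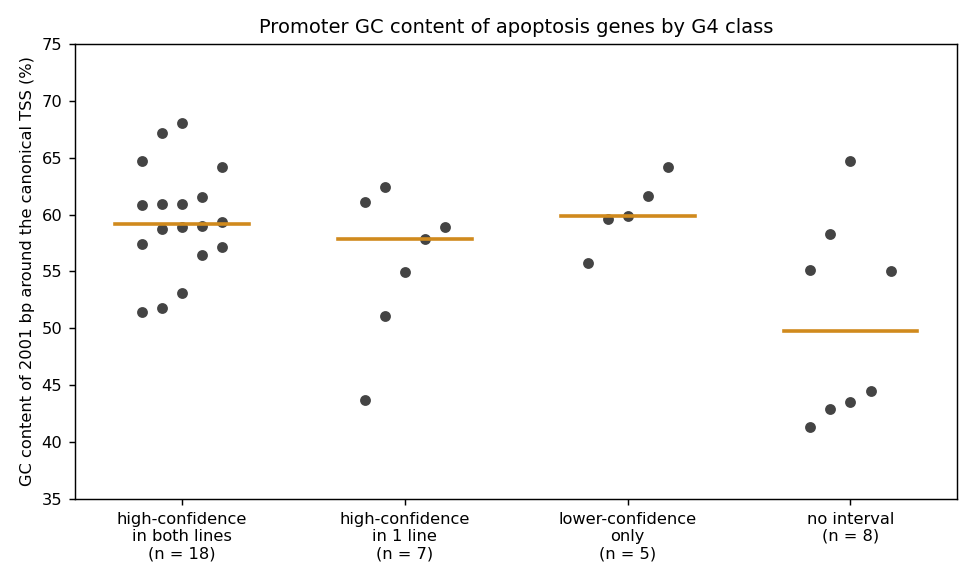
GC content (%) of the 2001 bp around the canonical TSS of each apoptosis gene (dots), grouped by G4 class in the lists, with the median of each group as an orange line. The 8 genes without an interval have a median of 49.8% and fall into low and high values, and the other groups have medians of 57.8% to 59.9%.

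A further 34 genes of the pathway, comprising ligands, other receptors and adaptors, remaining caspases, BCL2 and BIRC relatives, and mitochondrial and nuclear effectors, were counted in the same way. High-confidence peaks lay at 12 of them in K562 and 12 in HepG2, 10 of these in both lines, and 13 had no interval in any list. These shares, 35.3% in each line, 29.4% in both and 38.2% with no interval, were near the 35.7%, 30.7%, 24.3% and 41.1% of all protein-coding genes. The ligand genes FASLG and TNF were among the 13 without an interval. PARP1, which encodes a DNA repair enzyme cleaved by caspases, had a peak of 130 bp in K562 only, and AIFM2, a relative of the apoptosis-inducing factor gene, one of 54 bp in HepG2 only. The widest peaks were 388 bp at DFFB, which encodes the caspase-activated DNase, in K562 and 458 bp at ACIN1, which encodes a protein of apoptotic chromatin condensation, in HepG2.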

How the data were processed

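The 4 merged G4 ChIP-seq interval lists were analysed. Before deposition, the authors used cutadapt for trimming and BWA for alignment to hg19, marked and discarded duplicate reads, called peaks per replicate with MACS2 and merged replicates with bedtools multiinter. The deposited values are interval starts and ends in bp, and no column gives a signal or a replicate. Here, intervals were set against GENCODE version 44 lifted to GRCh37, whereas the study used an earlier GENCODE release. All transcripts of a gene counted as TSSs. Motifs were searched on both strands, without overlap on a strand. Since each line is 1 merged list per threshold, no test was run. Shares have 95% Wilson intervals and medians 95% order-statistic intervals. Intervals over peaks treat each peak as independent, although the 35 K562 peaks lie at 23 genes and the 26 HepG2 peaks at 20. The genes, their role groups and the list of 34 further pathway genes were chosen with earlier results of these data known. Every gene of the 38 is named. Peak positions are given for genes marked in 1 line, for the 5 widest peaks per line, for genes with several peaks and for each role group, and motif sequences for CASP9, the genes of the widest peaks and those marked in 1 line, none from chromosome 8. Of the further genes, those marked in 1 line and the widest were to be named, and 2 of them are not reported here. Overlap, position and motif functions were tested on simulated data. The software comprised samtools 1.23.1, matplotlib 3.10.9, pysam 0.24.0, scipy 1.17.1 and numpy 2.4.6 under Python 3.11.15.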

Additional observations from a re-analysis of the deposited data

How the results depend on the processing

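Of 52 values under alternative settings, 47 differed from the reported value by less than a factor of 1.5 for counts, or stayed within its 95% interval for medians. Counts and widths cannot change sign, and no median position did. The 5 that moved all concern the G4 motif. When 2 G sufficed for a run, 31 of 35 K562 peaks and 23 of 26 HepG2 peaks held a motif, beside 91.1% and 85.8% of all peaks near protein-coding TSSs. In HepG2, 11 peaks held one with loops of 1 to 12 bases (all peaks 39.8%), 13 with peaks extended by 50 bp on each side (35.6%), and 15 of 25 when the enclosing lower-confidence interval was searched (41.5%). The same search raised the K562 count from 15 of 35 to 21 of 32, which is under 1.5 times as a count although the number of intervals also fell. The number of marked genes out of 38 ranged from 19 to 27 in K562 and from 15 to 29 in HepG2. The lowest counts came with intervals of at least 100 bp only and the highest with the lower-confidence lists. Over all protein-coding genes, the same settings gave 32.4% and 50.1% in K562, and 26.2% and 51.2% in HepG2. With intervals of at least 100 bp only, K562 lost 4 genes (BCL2L12, MCL1, TNFRSF10A and TRADD) and HepG2 lost 5 (BCL2L13, BIRC5, CASP2, CASP8 and TNFRSF10B). No replicate could be left out and no paired analysis was possible because the lists are already merged. Peaks that fail a threshold may still hold reads, which the lists do not show.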
